A study of Mus musculus with 30 samples.

Results

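The genes that copy DNA and supply its building blocks were followed in mouse blood across 6 groups of arrays. The set holds 46 genes picked by name, from the factors that license replication origins to the enzymes that make deoxynucleotides. A gene counted as measured where at least 1 of its probes was well above background on 4 or more of the 5 arrays of some group, and its brightest such probe stood for it. All 46 genes were on the array, through 64 probes, and 42 were measured, of 18726 measured genes in all. The other 4, Cdc6, Orc1, Pola2 and Ccne2, stayed near background: their probes were well above it on at most 1 array of any group, and for Ccne2 on 0.

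Total RNA came from male C57BL/6J mice labelled p38WT, p38DKI or p38DN, so every group shares sex and strain background. What DKI and DN stand for, and the animals' ages, are not given in the sources used here. For each genotype, 5 samples were unirradiated and 5 came from mice given 7 Gy of x-rays, and the blood was drawn by cardiac puncture with a collection time of 24 h after irradiation. The series describes the 5 samples of a group as independent experiments. RNA of whole blood was labelled with Cy3 and hybridised to 1-colour Agilent arrays. Throughout, a level is the log2 signal of a gene's probe relative to the 75th percentile of its array, so that 0 is the 75th percentile. A change is a difference of such levels, with the fold beside it where it matters. A change was called where limma's adjusted p, corrected over all 18726 genes, was under 0.05. Levels of different probes were not set against each other.

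A cell prepares for S phase by loading the ring-shaped MCM helicase onto origins with the help of ORC, Cdc6 and Cdt1, which geminin holds in check. Cyclin E and the E2F factors open S phase, Cdc45 and GINS join the helicase, and polymerase alpha with its primase starts the strands that polymerases delta and epsilon extend. RFC loads the sliding clamp PCNA, RPA coats single strands, and Fen1 and Lig1 join Okazaki fragments, while ribonucleotide reductase, thymidylate synthase, thymidine kinase and dUTPase keep up the nucleotide pool. In blood most circulating leukocytes are not dividing, and lymphocytes, B cells above all, are among the most radiosensitive of its cells. In whole blood, fewer cells of a type and less RNA per cell cannot be told apart.

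E2F factors bind words close to TTTCCCGC and TTTGGCGC, and these promoters are shown because they hold such a word. They belong to the 3 members with a match that had the smallest p in any irradiation effect. Each is the 250 bases before a RefSeq start on GRCm38.p6, 5′ to 3′ on the strand of the gene, with the E2F word in capitals. Mcm7, a subunit of the MCM ring, lies on the minus strand (chr5:138171884-138172133). Pola1, the catalytic subunit of polymerase alpha, lies on the minus strand (chrX:93632156-93632405). Uhrf1, which brings the maintenance DNA methyltransferase to newly copied DNA, lies on the plus strand (chr17:56304063-56304312).
Mcm7: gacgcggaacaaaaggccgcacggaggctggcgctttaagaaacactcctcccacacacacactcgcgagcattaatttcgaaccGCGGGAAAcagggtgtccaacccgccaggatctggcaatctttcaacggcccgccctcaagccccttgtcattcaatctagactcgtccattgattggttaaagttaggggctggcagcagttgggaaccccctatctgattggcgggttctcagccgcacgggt
Pola1: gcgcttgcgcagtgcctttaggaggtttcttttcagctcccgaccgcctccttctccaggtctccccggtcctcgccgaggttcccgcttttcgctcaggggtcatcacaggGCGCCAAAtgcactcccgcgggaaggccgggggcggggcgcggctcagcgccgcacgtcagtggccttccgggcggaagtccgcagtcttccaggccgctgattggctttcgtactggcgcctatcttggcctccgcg
Uhrf1: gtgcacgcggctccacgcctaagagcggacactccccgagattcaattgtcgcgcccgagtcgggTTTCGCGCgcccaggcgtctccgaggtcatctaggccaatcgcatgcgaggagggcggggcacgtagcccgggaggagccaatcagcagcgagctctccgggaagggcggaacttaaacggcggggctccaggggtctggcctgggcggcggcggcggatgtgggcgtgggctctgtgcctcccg

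RefSeq promoters were matched for 38 of the 46 members, as 45 promoters because 6 genes have several starts. Any of the E2F words TTTCCCGC, TTTGGCGC, TTTCGCGC and TTTGCCGC, on either strand, was found in 8 of the 45, or 17.8%, against 1.86% of all 32851 promoters of this length. The matched genes were Mcm5, Mcm6, Mcm7, Orc1, Cdc6, Rfc3, Pola1 and Uhrf1, with overlapping words in Mcm5 and Mcm6. CCAAT, the core of the NF-Y site, was in 24 member promoters, or 53.3%, against 33.8% of all. TTTGAA, the CHR element of many late cell cycle genes, was in 5, or 11.1%, against 16% of all. Among measured genes with a promoter, an E2F word was present in 5 of the 24 that were lower after irradiation in at least 1 genotype and in 1 of the 11 that were lower in none. A word in this window is a description of the letters, not a bound site.

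**Figure D1:**
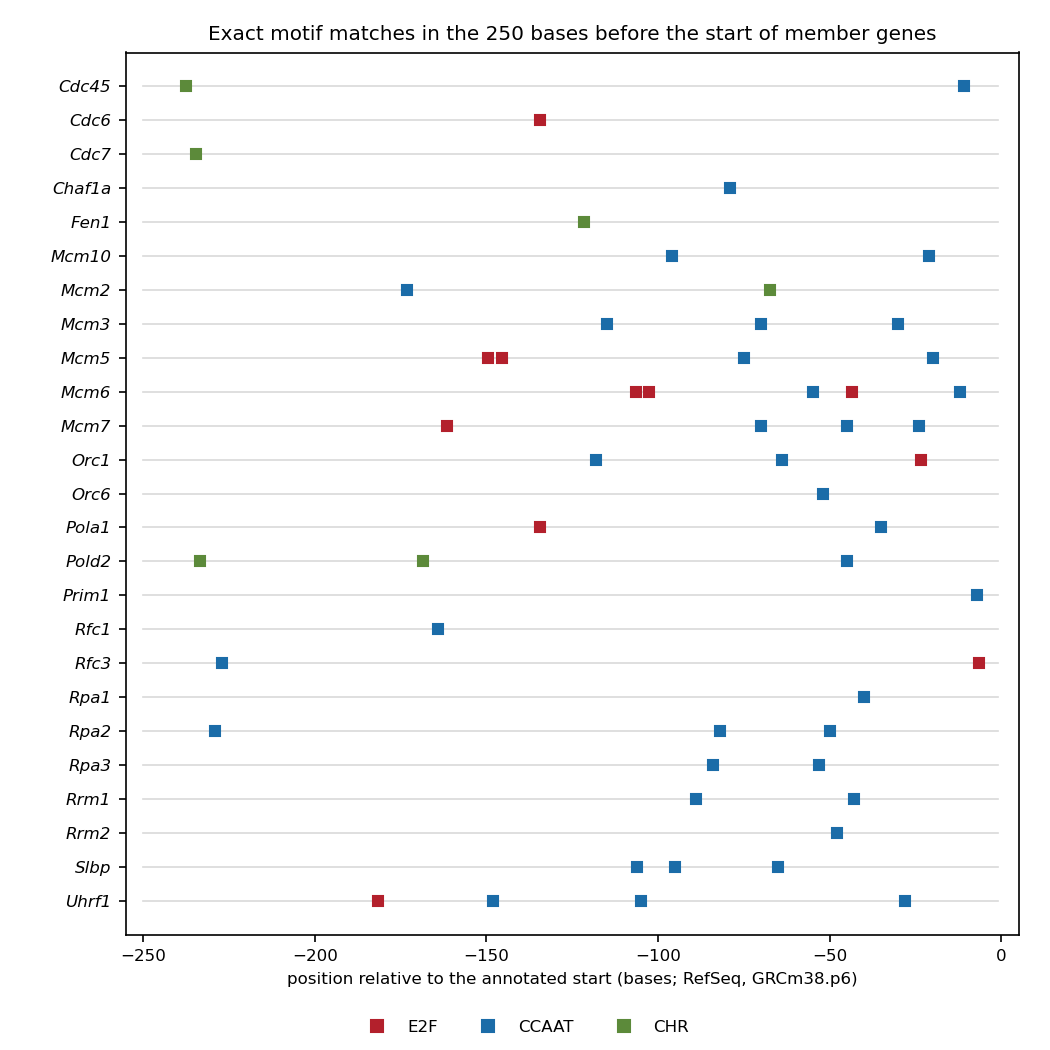
Matches of the E2F words, CCAAT and TTTGAA in the promoters of matched members, against distance before the RefSeq start in bases. Each row is 1 gene, with several starts of a gene drawn on the same row. E2F words lie in 8 genes, and CCAAT is the most widespread of the 3 motifs, in 22 of 38 genes.

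The arrays differed in ways the groups do not explain. Between 39.7% and 63.2% of probes were well above background on an array, and 5 arrays a group limit the precision. The p38DN arrays were scanned in an earlier period and on slides of their own. A p38DN level against a p38WT level therefore cannot be told apart from that batch. In p38WT and p38DKI, 1 slide each held both doses, so dose there cannot be fully told apart from slide. That slide held 3 irradiated and 1 unirradiated array in p38WT, and 1 and 3 in p38DKI. No slide held p38WT and p38DKI arrays of the same dose, whereas each p38DN slide held both doses. Erythroid markers, which define blood here, had mean levels of 3.19 to 6.74 on every array. Hepatocyte transcripts, which blood should lack, stood far above the median array on 4 arrays: p38DKI irradiated 2 (mean of 19 markers 8.80 above) and p38DN unirradiated 2, 4 and 5 (6.77, 7.83 and 7.79 above). These are called hepatocyte-rich below. On p38WT arrays the same mean lay between -3 and -0.42. Irradiated p38DKI replicate 2 also had the lowest mean of the 42 members, -1.20 against -0.37 to -0.27 for the other 4 of its group. Level differences between unirradiated p38DN arrays 4 and 5 had a scaled median absolute deviation of only 0.145 over probes. This spread was little more than the 0.10 to 0.12 between repeated spots on those arrays. Irradiated p38DN arrays 1 and 5 differed by 0.22 on the same measure. They were kept as separate samples, and values without them are given below where they end a call or move it by over 1.5 times.

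After 7 Gy the replication genes were mostly lower, and the p38WT and p38DKI groups had more called members than p38DN. In p38WT blood, 16 of 42 members fell and 2 rose, against 12.1% and 15% of all genes. In p38DKI blood, 21 fell and 0 rose, against 19.3% and 12.1% of all genes, and 0 had a positive change at an unadjusted p under 0.05. In p38DN blood, 6 fell and 2 rose, against 10.3% and 17.6% of all genes. The p38DN share of members that fell, 14.3%, was near its background, whereas 38.1% and 50% fell in p38WT and p38DKI. The median log2 change of the members was -0.63 in p38WT, -0.71 in p38DKI and -0.18 in p38DN, beside medians of -0.03, -0.25 and 0.01 over all genes. Levels were lower on average for 35, 38 and 27 of the 42, where 52%, 62.1% and 49.3% of all genes were. All irradiated arrays lay below all unirradiated arrays for 16, 19 and 4 members, against 11.4%, 12.5% and 7.67% of all genes. At an unadjusted p under 0.05, 24, 27 and 15 members stood out in either direction, against 37.5%, 43.5% and 39.1% of all genes.

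The scaling matters for the p38DKI count. With array medians in place of the 75th percentile, 10 members fell and 2 rose, and with no scaling 6 fell and 3 rose, while the median of all genes moved from -0.25 to 0.17 and 0.37. The shares of all genes that fell or rose under these scalings are not given here, so the counts lack a background. Those settings shift all genes of an array alike, so the members' median keeps its gap of -0.46 to that of all genes by construction. With normexp and quantile normalization the gap was -0.28, and with no filter on dim probes -0.26. Cdt1, Lig1, Mcm2, Mcm5, Pold1 and Uhrf1 were the 6 that fell under all 3 scalings. Ccne1, Mcm3, Mcm7 and Rpa1 also fell with array medians, and the other 11 of the 21 did not. Cdc45 and Dut were the 2 that rose with array medians. The hepatocyte-rich arrays matter for p38DN. Without all 4 of them, 15 members fell in p38DN, against 15.1% of all genes, with a member median of -0.39. Unirradiated p38DN then kept only replicates 1 and 3, here and wherever these arrays are left out below. Such p38DN values therefore rest on few unirradiated arrays. Then 23 fell in p38WT, against 15.7% of all genes, and 22 in p38DKI, against 16.4%. The 15 in p38DN were Ccne1, Pold1, Pold2, Uhrf1 and Rfc2, called also with all arrays, and Cdc7, Cdt1, Gins2, Lig1, Mcm2, Mcm4, Mcm5, Mcm7, Rfc4 and Rpa1. Cdc7 was well above background on 0 p38DN arrays. With the hepatocyte-rich arrays left out, Cdc45, E2f1 and Gmnn were called higher in p38DN (1.57, 0.87 and 1.32).

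**Figure D2:**
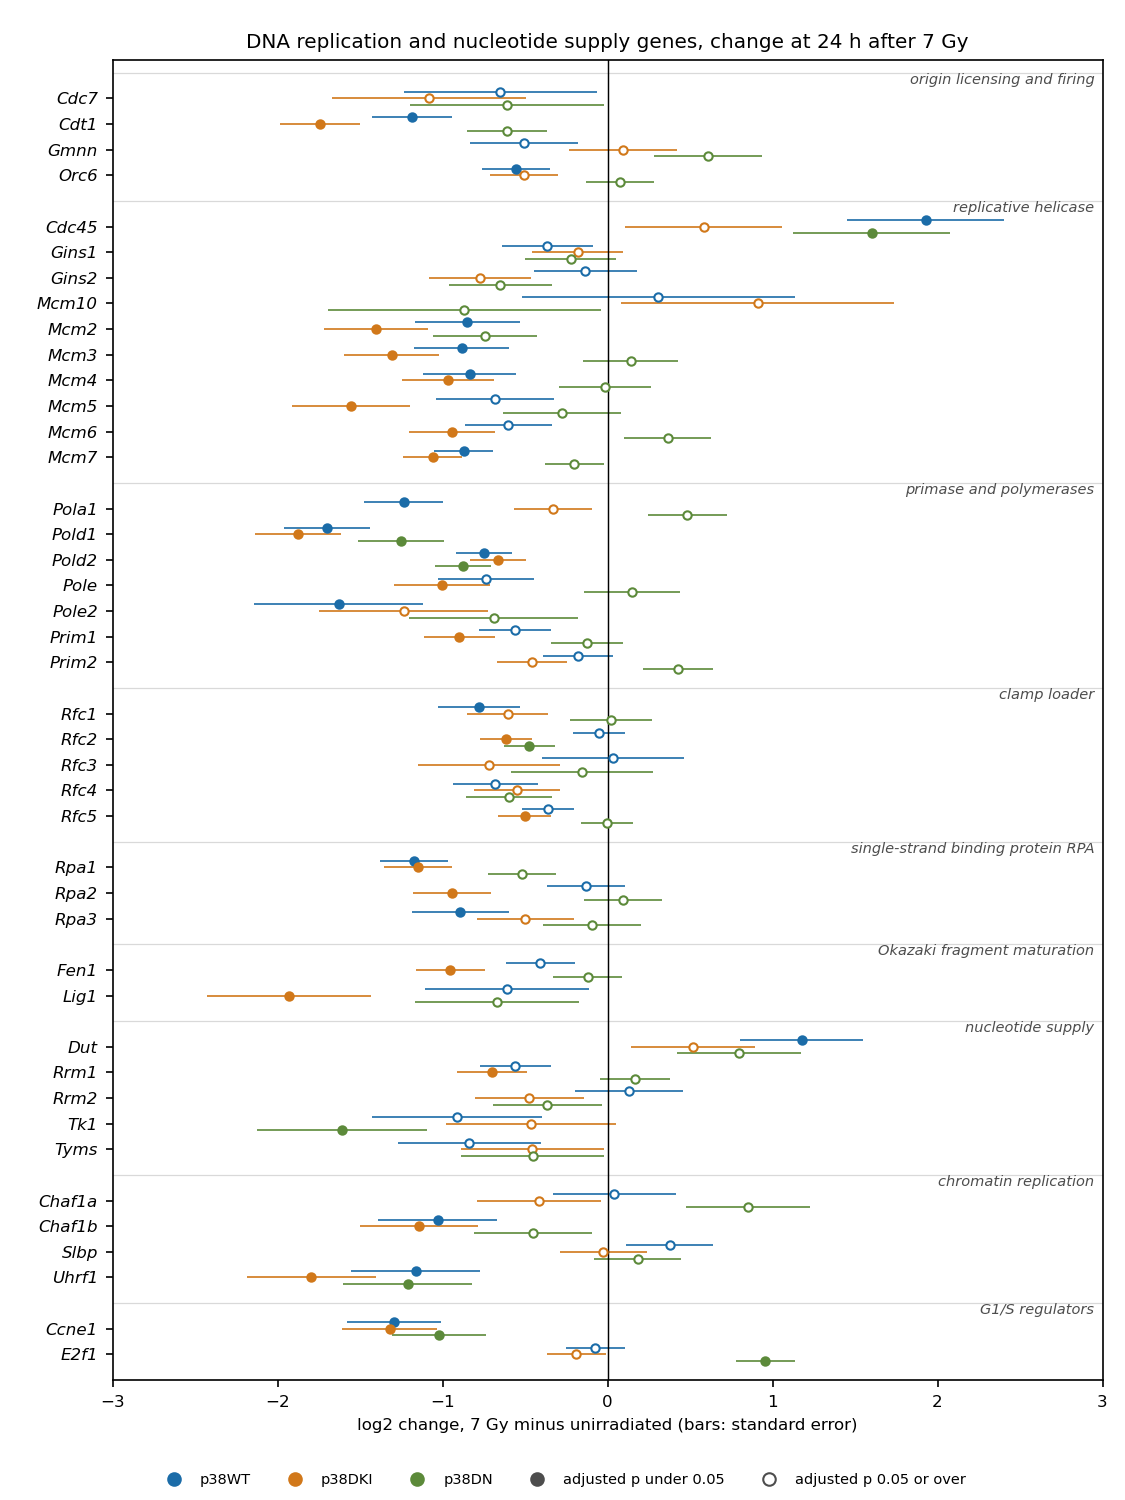
Log2 change after 7 Gy (irradiated minus unirradiated) of the 42 measured members in p38WT, p38DKI and p38DN, ordered by role, with bars of 1 standard error and filled points for called changes. Most points lie left of 0 in p38WT and p38DKI, with 16 and 21 called lower, and 6 in p38DN.

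Among the factors that license and fire origins, 4 of 6 were measured, and 2 fell in p38WT, 1 in p38DKI and 0 in p38DN. Cdt1, which loads the MCM ring, was the member that fell in both. Its levels (probe at chr8:125096893-125096952 on mm9) were 1.8, 1.71, 1.75, 2.04 and 2 in unirradiated p38WT and 1.12, 0.66, 0.71, 0.27 and 0.62 after irradiation. Every irradiated p38WT array was below every unirradiated one. In p38DKI they were 1.71, 1.79, 2.16, 1.77 and 1.67 before and 0.14, -1.14, 0.36, 0.64 and 0.39 after, again without overlap, and the lowest value was that of the hepatocyte-rich replicate 2. In p38DN they were 1.78, 2.02, 2.37, 1.44 and 1.41 before and 1.22, 1.37, 1.04, 1.37 and 0.96 after. The log2 change was -1.19 (SE 0.24, adjusted p = 0.00061, 2.28-fold lower) in p38WT and -1.75 (adjusted p = 6.63e-06, 3.35-fold lower) in p38DKI. In p38DN the arrays did not overlap either, but the change of -0.61 was not called (adjusted p = 0.0594). Without the 4 hepatocyte-rich arrays it was -0.88 and passed (adjusted p = 0.0035).

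Orc6, a subunit of the origin recognition complex, fell in p38WT by 0.56 (adjusted p = 0.0448), from between 0.66 and 1.28 to between 0.03 and 0.70. That call was lost without any 1 of 6 p38WT arrays, unirradiated 1, 4 and 5 and irradiated 2, 3 and 4 (changes of -0.58 to -0.46, adjusted p = 0.0509 to 0.135). Its change in p38DKI was -0.51 (adjusted p = 0.0614) and in p38DN 0.08. Gmnn, the Cdt1 inhibitor geminin, and Cdc7, the kinase that fires origins, were called in no genotype with all arrays and the main scaling. Without the hepatocyte-rich arrays Gmnn was called higher in p38DN (1.32, adjusted p = 0.0156) and Cdc7 lower (-1.70, adjusted p = 0.0308). The Gmnn probe was well above background on only 1 p38DN array at each dose. For Gmnn the gene's other kept probe pointed the other way in p38DKI and p38DN.

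Of the 10 helicase genes, 4 fell in p38WT, 6 in p38DKI and 0 in p38DN. All 6 genes of the MCM ring, Mcm2 to Mcm7, fell in p38DKI, and Mcm2, Mcm3, Mcm4 and Mcm7 fell in p38WT. The p38DKI calls of Mcm4 and Mcm6 were lost with array median scaling (-0.55, adjusted p = 0.121, and -0.52, adjusted p = 0.0997). With no scaling those of Mcm3, Mcm4, Mcm6 and Mcm7 were lost (-0.68, -0.34, -0.32 and -0.43). Mcm7 (probe at chr5:138605925-138605984 on mm9) had levels of 2.5, 2.31, 2.23, 2.42 and 2 in unirradiated p38WT and 1.32, 1.6, 1.67, 1.27 and 1.25 after irradiation. In p38DKI it went from 2.27, 2.44, 2.47, 2.61 and 2.51 to 1.5, 1.06, 1.27, 1.53 and 1.64. In both genotypes all irradiated arrays were below all unirradiated arrays. The changes were -0.87 (SE 0.18, adjusted p = 0.000671, 1.83-fold lower) and -1.06 (adjusted p = 8.47e-05, 2.08-fold lower). In p38DN the levels were 1.5, 1.15, 1.42, 0.5 and 0.51 before and 0.98, 0.83, 0.68, 0.92 and 0.65 after, and the groups overlapped. Unirradiated p38DN arrays 4 and 5, both hepatocyte-rich, held its lowest values, and the change was -0.20 (adjusted p = 0.43) with all arrays and -0.65 (adjusted p = 0.00668) without the 4 hepatocyte-rich arrays.

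The other ring subunits moved by similar amounts in p38DKI. Mcm2 went from between -0.93 and -0.37 to between -3.65 and -1.04, a change of -1.40 (adjusted p = 0.00156). Mcm3 changed by -1.31 (adjusted p = 0.00117), from between 0.73 and 1.5 to between -1.67 and 0.43, and Mcm5 by -1.56 (adjusted p = 0.00186). Mcm4 and Mcm6 changed less, by -0.97 (adjusted p = 0.0105) and -0.94 (adjusted p = 0.0078). Without the hepatocyte-rich irradiated p38DKI replicate 2 these were -0.61 (adjusted p = 0.0328) and -0.56 (adjusted p = 0.0124). In p38WT, Mcm3 fell by 0.88 (adjusted p = 0.0219) and its ranges, 0.80 to 1.27 before and -0.18 to 0.40 after, did not overlap. The p38WT calls of the ring subunits other than Mcm7 lay near the threshold. Mcm2 (-0.85, adjusted p = 0.0463) lost its call without any 1 of 9 of the 10 p38WT arrays, all but irradiated replicate 2 (-0.89 to -0.75, adjusted p = 0.0567 to 0.111). Mcm4 (-0.84, adjusted p = 0.0271) lost it without unirradiated 1 or irradiated 1 or 5 (-0.80 to -0.78), and Mcm3 without irradiated 4 (-0.80, adjusted p = 0.0583). In p38DN, Mcm3 and Mcm6 had changes of 0.14 and 0.36, and neither was called. Without the hepatocyte-rich arrays, Mcm2, Mcm4, Mcm5 and Mcm7 were called lower in p38DN, at -1.22, -0.55, -0.93 and -0.65.

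Cdc45, which joins MCM and GINS in the active helicase, went the other way. Its levels (probe at chr16:18807449-18807508 on mm9) were -2.64, -1.95, -2.07, -2.53 and -3.3 in unirradiated p38WT and -1.15, -0.57, -0.24, 0.24 and -1.11 after irradiation. In p38DN they were -1.39, -1.71, -1.28, -1.09 and -1.37 before and 0.96, -0.98, 0.52, -0.32 and 0.98 after. Every irradiated array of these genotypes was above every unirradiated array. Cdc45 rose by 1.93 in p38WT (SE 0.48, adjusted p = 0.00327, 3.81-fold) and by 1.60 in p38DN (adjusted p = 0.0124, 3.04-fold). p38DKI arrays read -1.48, -1.76, -2.7, -1.99 and -1.29 before and 0.11, -3.62, -1.18, -0.84 and -0.77 after. Here 4 of the 5 irradiated arrays were above every unirradiated one, and the hepatocyte-rich replicate 2 was the lowest of all 10. The p38DKI change was 0.58 (adjusted p = 0.341), and 1.17 without the 4 hepatocyte-rich arrays (adjusted p = 0.0266). No ring subunit rose in any genotype. Of the GINS subunits, Gins2 changed by -0.77 in p38DKI (adjusted p = 0.0582), and Gins1 and Mcm10 were called in no genotype. Mcm10 read 4.14 on irradiated p38DKI replicate 2, where the other 4 arrays of the group read -2.23 to -1.60. In unirradiated p38DN it read -0.41, -0.12 and -0.29 on hepatocyte-rich replicates 2, 4 and 5. Replicates 1 and 3 read -2.98 and -3.33. Its changes in p38DKI and p38DN were 0.91 and -0.87 with all arrays. They were -0.30 and 0.86 without the hepatocyte-rich arrays, again not called.

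Of the primase and polymerase genes, 7 of 8 were measured, and 4 fell in p38WT, 4 in p38DKI and 2 in p38DN. Pold1, the catalytic subunit of polymerase delta, fell in all 3 genotypes. Its probe lies at chr7:51788221-51788589 on mm9. The levels were 2.27, 2.28, 2.14, 2.47 and 2.17 in unirradiated p38WT and 0.72, 0.7, 0.51, 0.51 and 0.4 after irradiation. In p38DKI they were 1.93, 2.52, 2.56, 2.18 and 1.98 before and 0.51, -0.78, 0.46, 0.9 and 0.71 after, and in p38DN 2.06, 1.74, 1.96, 0.8 and 0.98 before and -0.07, 0.72, -0.05, 0.37 and 0.32 after. No irradiated array reached the unirradiated range of its genotype. In unirradiated p38DN, replicates 4 and 5 were lower than the other 3, and in irradiated p38DKI replicate 2 was lowest. The mean went from 2.27 ± 0.13 to 0.57 ± 0.14 (SD, n = 5) in p38WT. The changes were -1.70 (SE 0.26, adjusted p = 2.68e-05, 3.25-fold lower) in p38WT, -1.88 (adjusted p = 6.67e-06, 3.67-fold lower) in p38DKI and -1.25 (adjusted p = 0.000658, 2.38-fold lower) in p38DN. Without the hepatocyte-rich arrays they were -1.70, -1.59 and -1.75. Pold1 was lower on all 5 p38DN slides that held both doses (-2.13 to -0.43) and on the single such slide of p38WT (-1.53) and p38DKI (-1.74).

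Pold2, the second subunit of the same polymerase, also fell in all 3. On the probe at chr11:5773086-5773145 (mm9) it read -1.25, -1.38, -1.64, -1.29 and -1.66 in unirradiated p38WT and -1.85, -2.01, -2.32, -2.69 and -2.07 after irradiation. They were -1.47, -1.35, -1.3, -1.45 and -1.31 and -2.24, -1.82, -2.28, -1.66 and -2.21 in p38DKI, and -0.78, -1.44, -1.12, -1.44 and -1.21 and -2.44, -1.91, -1.98, -1.99 and -2.05 in p38DN. The dose groups did not overlap in any genotype. The falls were 1.68-fold (log2 -0.75, adjusted p = 0.00169), 1.59-fold (-0.67, adjusted p = 0.00434) and 1.83-fold (-0.87, adjusted p = 0.00035), and the p38DKI one was the most sensitive to scaling (-0.25 with array medians, -0.04 with none). It was lower on all 5 p38DN slides too.

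Pola1, which extends the primer made by primase, differed between genotypes. The probe, at chrX:90550189-90550248 on mm9, read -2.19, -2.15, -2.41, -1.55 and -1.93 in unirradiated p38WT and -2.96, -3.54, -3.04, -4 and -2.87 after irradiation, and it fell by 1.24 (SE 0.24, adjusted p = 0.000356, 2.36-fold). In p38DKI they were -2.08, -2.63, -2.58, -2.23 and -2.13 before and -2.77, -3.23, -2.54, -2.37 and -2.38 after, with a change of -0.33 (adjusted p = 0.282). In p38DN they were -3.05, -2.8, -2.96, -3.36 and -3.58 before and -3.03, -2.39, -3.04, -2.04 and -2.83 after, with a change of 0.48 (adjusted p = 0.131). The dose groups were apart in p38WT and overlapped in the other genotypes. The probe was dim: it was well above background on 5 and 2 of the 5 arrays in p38WT (unirradiated and irradiated), 4 and 5 in p38DKI, and 1 and 2 in p38DN, so the irradiated p38WT and the p38DN levels lie near the limit of measurement and the size of the p38WT fall is uncertain. With normexp background correction and quantile normalization that change was -0.12 and not called (adjusted p = 0.07).

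Pole, the catalytic subunit of polymerase epsilon, fell in p38DKI by 1 (adjusted p = 0.0101), from between -1.32 and -0.77 to between -2.35 and -1.62, without overlap, but not with array median scaling (-0.58, adjusted p = 0.178). In p38WT its change was -0.74 (adjusted p = 0.0593). Pole2, its second subunit, fell in p38WT by 1.63 (adjusted p = 0.0188), a call that was lost without unirradiated replicate 4 (-1.48, adjusted p = 0.0536) or irradiated replicate 4 (-1.48, adjusted p = 0.0505). This probe is dim: it passed the filter through unirradiated p38WT, with 5 arrays well above background there, and was well above it on 1 irradiated p38WT array, so the size of the fall is poorly known. Prim1, the catalytic primase subunit, fell in p38DKI by 0.90 (adjusted p = 0.00284), though not with array median scaling (-0.48, adjusted p = 0.149). Its change in p38WT was -0.56 (adjusted p = 0.0548), and Prim2 was called in none. The other kept probe of Prim2 gave -0.85 in p38DKI (adjusted p = 0.0412 over probes), 0.105 in p38WT and 0.52 in p38DN.

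Of the 5 subunits of the clamp loader RFC, 1 fell in p38WT, 2 in p38DKI and 1 in p38DN. All 5 were below 0 in p38DKI, from -0.72 to -0.50, where the median of all genes was -0.25. Rfc2 fell in p38DKI by 0.62 (SE 0.16, adjusted p = 0.0039), from between 1.14 and 1.75 to between 0.62 and 1.03, and in p38DN by 0.47 (adjusted p = 0.0234), from between 0.93 and 1.56 to between 0.58 and 0.89. Its p38WT ranges were 1.04 to 1.46 before and 0.95 to 1.51 after, and its change there was -0.05 (adjusted p = 0.847). The p38DKI fall of Rfc2 depended on the scaling (-0.20 with array medians and 0.01 with none), and the p38DN call was lost without unirradiated 2 or 3 or irradiated 1 (-0.44, -0.40 and -0.42). Rfc5 fell in p38DKI by 0.50 (adjusted p = 0.0174), from between 0.92 and 1.14 to between 0.23 and 0.74. It was 0.12 higher with no scaling, and the call was lost without irradiated replicate 1 (-0.43, adjusted p = 0.0514). The gene's other kept probe gave -1.32 in p38DKI, -0.78 in p38DN and -0.71 in p38WT. Its adjusted p, corrected over probes, was 0.00122, 0.0446 and 0.0707. Rfc1, the largest subunit, fell in p38WT by 0.78 (adjusted p = 0.0196), a call lost without irradiated replicate 4 (-0.64, adjusted p = 0.0683). Rfc3 and Rfc4 were called in none.

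Of the 3 subunits of RPA, which protects single-stranded DNA, 2 fell in p38WT, 2 in p38DKI and 0 in p38DN. Rpa1, the large subunit, had levels (probe at chr11:75113898-75113957 on mm9) of 3.99, 3.86, 3.74, 4.04 and 3.66 in unirradiated p38WT and 2.13, 2.86, 3.05, 2.61 and 2.79 after irradiation. The p38DKI levels were 3.6, 4, 4.28, 3.97 and 3.66 before and 2.63, 2.33, 2.86, 2.92 and 3.02 after. Neither genotype had overlapping arrays, and the falls were 2.25-fold (log2 -1.17, SE 0.21, adjusted p = 0.000142) and 2.21-fold (-1.15, adjusted p = 0.000173). With no scaling the p38DKI call was lost (-0.52, adjusted p = 0.262). In p38DN they were 3.09, 3.25, 3.5, 2.59 and 2.58 before and 2.19, 2.82, 2.35, 2.87 and 2.21 after, where the groups overlapped. The p38DN change was -0.52 (adjusted p = 0.0622). It was -0.81 (adjusted p = 0.0148) without the hepatocyte-rich arrays, and the gene's other kept probe gave -0.61 (adjusted p = 0.029).

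Rpa2, the middle subunit, fell in p38DKI by 0.94 (SE 0.24, adjusted p = 0.00384), from between -1.60 and -0.95 to between -3.03 and -1.89. It was -0.52 (adjusted p = 0.149) with array median scaling and -0.32 (adjusted p = 0.486) with none. In p38WT its ranges were -1.73 to -1.27 before and -1.86 to -1.54 after, with a change of -0.13. Rpa3, the small subunit, fell in p38WT by 0.89 (adjusted p = 0.0253), from between 1.95 and 2.5 to between -0.05 and 1.81, and the lowest value was that of irradiated replicate 3. Without that array its change was -0.56 (adjusted p = 0.106), and the call was also lost without unirradiated 1 or 4 (-0.85 and -0.81).

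Fen1, the flap endonuclease, and Lig1, the ligase that seals Okazaki fragments, both fell in p38DKI and in no other genotype's test. Fen1 went from between 0.97 and 1.59 to between -0.62 and 0.63 there, a fall of 0.95 (SE 0.21, adjusted p = 0.00118), but -0.53 (adjusted p = 0.161) with array median scaling and -0.33 (adjusted p = 0.509) with none. Its changes in p38WT and p38DN were -0.41 (adjusted p = 0.156) and -0.12. Lig1 fell by 1.93 (SE 0.50, adjusted p = 0.00457), from between 6.12 and 7.95 to between 2.41 and 6.69, with the lowest value on the hepatocyte-rich replicate 2. Without that array the change was -1.24 (adjusted p = 0.00928). Its changes in p38WT and p38DN were -0.61 (adjusted p = 0.399) and -0.67. The difference between the p38DKI response and the others was not called for either gene.

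The genes of nucleotide supply did not share a direction. Of 5, 0 fell and 1 rose in p38WT, 1 fell in p38DKI and 1 fell in p38DN. Dut, the dUTPase that keeps uracil out of DNA, had levels (probe at chr2:125083359-125083418 on mm9) of 2.54, 2.31, 2.49, 2.22 and 2.49 in unirradiated p38WT and 2.96, 3.32, 3.67, 4.35 and 3.64 after irradiation. All 5 irradiated arrays were above all 5 unirradiated arrays. Dut rose 2.26-fold in p38WT (log2 1.18, SE 0.38, adjusted p = 0.0203), a call lost without irradiated replicate 4 (0.98, adjusted p = 0.0679). Its changes in p38DKI and p38DN were 0.52 (adjusted p = 0.285) and 0.80 (adjusted p = 0.115). Rrm1, the large subunit of ribonucleotide reductase, fell in p38DKI by 0.70 (adjusted p = 0.0144), from between -0.85 and -0.37 to between -1.45 and -0.81. The call was lost with array median scaling (-0.28, adjusted p = 0.472), no scaling (-0.08), the deposited values (-0.47, adjusted p = 0.12) and normexp with quantile normalization (-0.19, adjusted p = 0.132). Its p38WT change was -0.56 (adjusted p = 0.0524). Rrm2, the small subunit made in S phase, was called in none (0.13, -0.47 and -0.36), nor was Tyms, thymidylate synthase.

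Tk1, the S-phase thymidine kinase, followed the hepatocyte-rich arrays. The probe at chr11:117676845-117676904 (mm9) read 0.11, -0.29, 0.02, 0.38 and -0.66 in unirradiated p38WT and -1.21, -0.58, -0.73, -1.13 and -1.36 after irradiation. In p38DKI they were 0.23, 0.44, 0.3, 0.66 and 0.81 before and -0.46, 3.01, -0.98, -0.81 and -0.62 after, the 3.01 being that of the hepatocyte-rich replicate 2. In p38DN they were -2.31, 0.02, -1.51, -0.12 and -0.07 before and -2.61, -2.57, -2.63, -1.98 and -2.23 after, and the 3 high unirradiated values were those of hepatocyte-rich replicates 2, 4 and 5. The dose groups overlapped in all 3 genotypes. With all arrays, Tk1 fell in p38DN by 1.61 (adjusted p = 0.02, 3.05-fold), and its changes in p38WT and p38DKI were -0.91 (adjusted p = 0.2) and -0.46 (adjusted p = 0.492). Without the 4 hepatocyte-rich arrays the calls changed places. They were -0.91 in p38WT (adjusted p = 0.00168) and -1.21 in p38DKI (adjusted p = 0.000295), and the p38DN change of -0.50 was not called (adjusted p = 0.182). Leaving out any 1 of unirradiated p38DN replicates 2, 4 and 5 also ended the p38DN call (-1.40, -1.44 and -1.43).

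Among the genes that restore chromatin behind the fork, 2 of 4 fell in p38WT, 2 in p38DKI and 1 in p38DN. Uhrf1 (probe at chr17:56462770-56462829 on mm9) fell in all 3. Its levels were 0.3, -0.19, 0.16, 0.24 and -0.33 in unirradiated p38WT and -1.7, -1.16, -0.26, -1.14 and -1.35 after irradiation. In p38DKI they were 0.5, -0.29, -0.3, 0.96 and 1.01 before and -0.85, -3.18, -0.97, -1.21 and -0.89 after, and in p38DN 0.17, -0.27, 0.19, -0.66 and -0.7 before and -1.72, -1.11, -2.31, -0.46 and -1.73 after. The arrays overlapped in p38WT and p38DN and did not in p38DKI. The falls were 1.16 on the log2 scale in p38WT (SE 0.39, adjusted p = 0.0277), 1.80 in p38DKI (adjusted p = 0.00113, 3.47-fold) and 1.21 in p38DN (adjusted p = 0.021). The p38WT call was lost without unirradiated 1, 3 or 4 or irradiated 1 or 5 (-1.13 to -1.02), and the p38DN call without unirradiated 3 (-1.10, adjusted p = 0.0526) or irradiated 3 (-1, adjusted p = 0.0642).

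Chaf1b, a subunit of the histone chaperone CAF-1, was called lower in p38WT (-1.03, adjusted p = 0.0337) and p38DKI (-1.14, adjusted p = 0.017). With array median scaling both calls were lost (-1.03, adjusted p = 0.0524, and -0.72, adjusted p = 0.173). In p38WT the gene's other probe gave -0.33 (adjusted p = 0.228), and without irradiated replicate 3 the change was -0.45 (adjusted p = 0.0744). Leaving out unirradiated 1, 2 or 4 ended the call too, at -1.01 each. The other probe gave -1.28 in p38DKI (adjusted p = 2.25e-05 over probes) and -0.51 in p38DN (adjusted p = 0.0487). Chaf1a and Slbp, which binds the stem-loop of histone mRNAs, were called in none.

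Of the G1/S regulators, Ccne1 and E2f1 were measured. Ccne1, cyclin E1, which drives the entry into S phase, fell in all 3 genotypes. With its probe at chr7:38882937-38882960 on mm9, the levels were 0.51, 0.06, 0.09, 0.45 and -0.18 in unirradiated p38WT and -1.5, -0.95, -0.82, -1.07 and -1.2 after irradiation. Arrays of p38DKI read 0.07, 0.24, 0.58, 0.6 and 0.41 before and -1.05, -1.41, -1.07, -0.74 and -0.42 after. These groups did not overlap, and the falls were 2.45-fold in p38WT (SE 0.29 on the log2 scale, adjusted p = 0.00127) and 2.5-fold in p38DKI (adjusted p = 0.00108). In p38DN they were 1.34, 0.4, 1.54, -0.04 and 0.21 before and -0.19, -0.81, 0.45, -1.11 and 0.02 after, with overlap, and the fall was 2.03-fold (log2 -1.02, adjusted p = 0.00833), or -1.77 on the log2 scale without the hepatocyte-rich arrays. With no scaling the p38DKI call was lost (-0.70, adjusted p = 0.0927). On each of the 5 p38DN slides, though, the irradiated array was the lower (-1.54 to -0.19).

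E2f1, the activator of many S-phase genes, rose in p38DN blood and in no other test. Its levels (probe at chr2:154385798-154385857 on mm9) were -1.34, -1.71, -1.57, -1.47 and -1.61 in unirradiated p38DN and -0.47, -0.56, -1.21, -0.14 and -0.55 after irradiation, without overlap. In p38WT they were -0.96, -1.25, -1.18, -1.27 and -1.33 before and -1.27, -1.46, -1.3, -1.02 and -1.3 after, and in p38DKI -0.8, -1.29, -1.44, -0.78 and -1.13 before and -1.09, -1.62, -0.84, -1.45 and -1.38 after. In these 2 genotypes the dose groups overlapped. The p38DN rise was 1.94-fold (log2 0.96, adjusted p = 0.000229), and the changes elsewhere were -0.07 (SE 0.18, adjusted p = 0.81) and -0.19 (adjusted p = 0.413). On all 5 p38DN slides the irradiated array was the higher (0.36 to 1.33), and without the hepatocyte-rich arrays the rise was 0.87 (adjusted p = 0.00801).

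**Figure D3:**
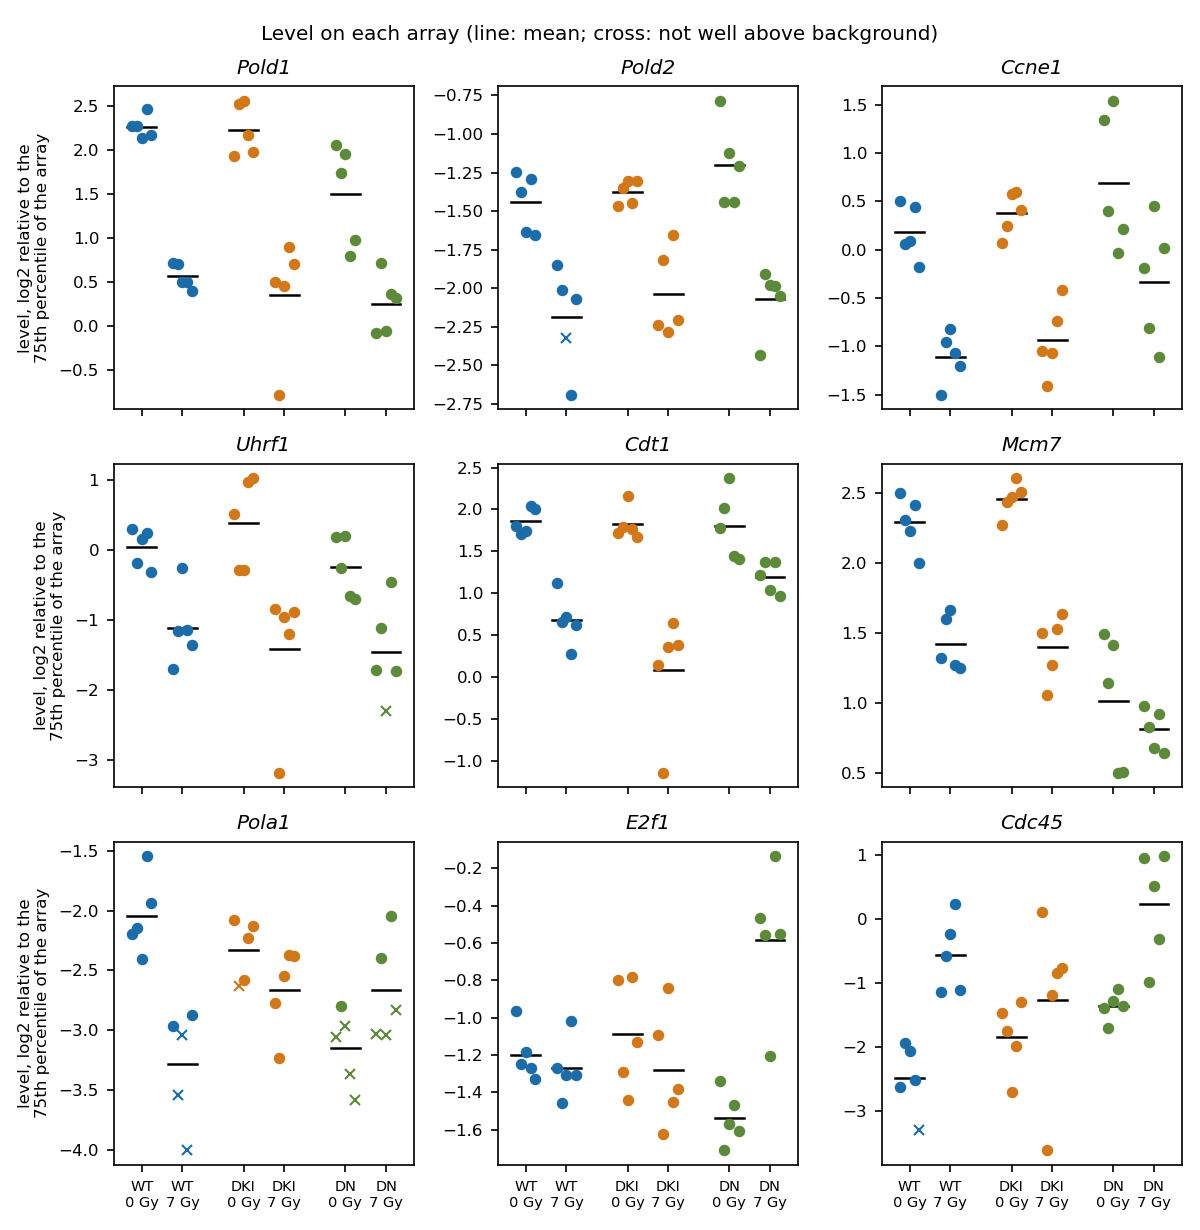
Levels (log2 relative to the array's 75th percentile) of 9 members on every array, by genotype and dose, with group means. Pold1 is lower after 7 Gy in all 3 genotypes, from 2.27 to 0.57 in p38WT, Cdc45 is higher after 7 Gy in p38WT and p38DN, and E2f1 is higher in p38DN. Crosses mark arrays on which the probe was not well above background.

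Across genotypes, Ccne1, Pold1, Pold2 and Uhrf1 were the 4 members that fell in all 3, and 12 of the 42 were called in none in either direction. The p38WT and p38DKI calls shared 11 lower members, 68.8% of those in p38WT and 52.4% of those in p38DKI. The p38WT and p38DN calls shared 4, or 25% and 66.7%. These overlaps were counted over the members only, so no background over all genes stands beside them. No member was called in opposite directions in different genotypes.

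Whether genotypes responded differently was tested on the difference of the irradiation effects. Between p38DKI and p38WT, 0 of 42 members differed, where 0.00534% of all genes did, and 3 members had an unadjusted p under 0.05 (13.9% of all genes). The members with the smallest p were Pola1 (0.91, 95% interval 0.21 to 1.60, adjusted p = 0.257), Rfc2 (-0.56, adjusted p = 0.277) and Rpa2 (-0.81, adjusted p = 0.303). The 2 counts of falls, 21 and 16, were not themselves set against each other in a test.

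Between p38DN and p38WT, 2 members had a higher response in p38DN, where 0.999% of all genes did (1.64% in either direction), and 12 had an unadjusted p under 0.05 (19% of all genes). They were Pola1, with a difference of 1.72 (SE 0.34, 95% interval 1.03 to 2.41, adjusted p = 0.0147), and E2f1, with 1.03 (SE 0.25, interval 0.51 to 1.55, adjusted p = 0.0384). For Pola1 the irradiation effects were -1.24 in p38WT and 0.48 in p38DN. The p38DN one was not called (adjusted p = 0.131), and the probe was dim. For E2f1 they were -0.07 in p38WT, not called (adjusted p = 0.81), and 0.96 in p38DN. Pola1 kept its call without any single array, but 3 other settings ended it: array median scaling (1.74, adjusted p = 0.0505), slide as a fixed block (1.73, adjusted p = 0.538) and normexp with quantile normalization, where the difference was 0.16 (adjusted p = 0.163). E2f1 lost it without any 1 of 13 arrays (0.92 to 1.05, adjusted p = 0.0508 to 0.0795), namely unirradiated p38DN 2 to 5, irradiated p38DN 2 and 4, unirradiated p38WT 1 to 4 and irradiated p38WT 1, 2 and 5. Without the hepatocyte-rich arrays it was 0.94 (adjusted p = 0.0689).

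Between p38DN and p38DKI, 1 member, E2f1, had a higher response in p38DN (1.15, SE 0.25, adjusted p = 0.0271), where 0.721% of all genes did (0.929% in either direction), and 17 had an unadjusted p under 0.05 (22.4% of all genes). This call was lost without unirradiated p38DKI 4, unirradiated p38DN 2 or 5 or irradiated p38DN 4, and without the 4 hepatocyte-rich arrays (0.97, adjusted p = 0.211). Mcm3 (1.45, adjusted p = 0.0728) and Mcm6 (1.31, adjusted p = 0.0763) came next. Over all 42 members, the median difference of response was 0.40 against p38WT and 0.63 against p38DKI, beside 0.08 and 0.32 over all genes. The 2 differences share the p38DN arrays.

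Within a dose, p38DKI levels differed from p38WT levels for 0 of 42 members before irradiation (0.101% of all genes) and for 0 after it (4.51% of all genes), with 0 and 9 at an unadjusted p under 0.05 (7.35% and 24.7% of all genes). The nearest to a call were Gins2 before (0.59, 95% interval -0.05 to 1.22, adjusted p = 0.718) and Rfc2 after (-0.46, interval -0.78 to -0.14, adjusted p = 0.0779). Pole and Rfc5 followed before (0.51 and 0.28), Fen1 and Pola1 after (-0.57 and 0.62). The p38DN levels differed more, as did those of all genes, and the scanning period and slides moved with that genotype. Before irradiation 16 members were lower and 3 higher, against 37.6% and 18.3% of all genes, and after it 9 were lower and 7 higher, against 27.7% and 16.1%.

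Mcm7, Rpa3 and Rrm2 were among the members with the smallest p in these comparisons. Mcm7 was 1.28 lower in unirradiated p38DN than in p38WT (adjusted p = 1.16e-06), and 0.84 lower without the hepatocyte-rich arrays (adjusted p = 0.000324). Rpa3 was 1.82 lower (adjusted p = 9.59e-06), at -0.13 to 0.62 in p38DN against 1.95 to 2.5 in p38WT. These arrays did not overlap. After irradiation, Rrm2 was 2.27 lower in p38DN (adjusted p = 3.74e-06), at 0.6, -0.62, 0.41, 0.13 and 0.49 against 1.63, 2.47, 3.03, 2.78 and 2.44 in p38WT, and Dut 1.81 lower (adjusted p = 0.000305). Rrm1, the partner of Rrm2, was 0.95 higher there (adjusted p = 0.000714), so the subunits of 1 enzyme differed in opposite directions. Whether these are effects of genotype or of batch cannot be told apart.

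The wider replication and cell cycle list, 59 genes outside the set of which 52 were measured, moved in both directions. In p38WT 11 fell and 7 rose, in p38DKI 18 and 4, and in p38DN 6 and 9. Among all genes, 12.1% fell and 15% rose in p38WT, 19.3% and 12.1% in p38DKI, and 10.3% and 17.6% in p38DN. The list's p38DN shares, and its p38WT share that rose, lay near these. Cdkn1a, the p53 target p21 that blocks S-phase entry, rose in all 3, by 3.5 (11.3-fold), 4.14 (17.6-fold) and 4.35 (20.4-fold). E2f2, another E2F factor, fell in all 3, by 1.67 (3.17-fold), 2.51 (5.69-fold) and 2.15 (4.45-fold). The G1 cyclin Ccnd1 rose in all 3 too (1.60, 2.45 and 2.87), although in p38WT not without irradiated replicate 3 (1.36, adjusted p = 0.061). Nasp, a histone chaperone, fell in p38WT (-0.91, adjusted p = 9.91e-05) and p38DKI (-0.69), as did Donson, a helicase assembly factor (-0.83 and -1.12). In p38DN their changes were -0.13 and -0.24. Rnaseh2c, a subunit of the nuclease that removes ribonucleotides from DNA, fell in p38DN (-0.84, adjusted p = 4.7e-05) and read -0.05 and 0.09 in p38WT and p38DKI.

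Pcna, the clamp itself, was called in no genotype with all arrays and the main scaling (0.14, -0.65 and -0.02). The p38WT value rested on irradiated replicate 3, which read 5.43 where the other 4 read 1.74 to 2.26, and without that array Pcna was called lower in p38WT (-0.55, adjusted p = 0.027). With normexp and quantile normalization it was called lower in p38WT (-0.43, adjusted p = 0.00271) and in p38DKI (-0.53, adjusted p = 0.000492).

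Markers of blood cell types also changed after irradiation, in both directions. All 10 B cell markers fell in every genotype, with median changes of -4.12 in p38WT, -4.03 in p38DKI and -2.5 in p38DN, and their mean level went from between 2.36 and 3.08 to between -1.64 and -1.19 in p38WT, from between 2.24 and 3.15 to between -3.13 and -0.76 in p38DKI and from between 1.38 and 2.77 to between -1.24 and -0.12 in p38DN. Of 10 T cell markers, 6, 9 and 4 fell. The mean level of the erythroid markers went from 5.84 to 5.17 in p38WT, 5.92 to 4.455 in p38DKI and 6.02 to 4.70 in p38DN. That of the NK cell markers went from 2.47 to 3.98, 2.37 to 3.2 and 0.735 to 1.27. Neutrophil markers rose for 8, 6 and 1 of 9, and platelet markers for 7, 2 and 8 of 8. Of 13 measured mitosis genes, 2, 7 and 3 fell and 0, 0 and 1 rose. Beside these counts, 12.1%, 19.3% and 10.3% of all genes fell and 15%, 12.1% and 17.6% rose. The part of these cell types in the members' changes was not tested.

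The mean level of the 42 members per array was -0.12 to 0.17 in unirradiated p38WT and -0.56 to -0.31 after irradiation. It was 0.16 to 0.40 and -1.20 to -0.27 in p38DKI, both without overlap. In p38DN it was -0.68 to -0.11 before and -0.67 to -0.34 after, and these overlapped, with unirradiated replicates 4 and 5 lowest before. Within slides that held both doses, the median member change was -0.42 for p38WT (1 slide), -0.76 for p38DKI (1 slide) and -0.67 to 0.30 over the 5 p38DN slides. The p38DN slides above 0 were those of replicates 5 and 4, at 0.02 and 0.30, whose unirradiated arrays were hepatocyte-rich. With slide as a fixed block, limma called 0 members lower in p38WT (6 at an unadjusted p under 0.05) and 1 in p38DKI (14 unadjusted), where the comparison rests on 1 slide each. In p38DN, where all 5 slides hold both doses, 6 fell and 2 rose under that block, as without it.

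**Figure D4:**
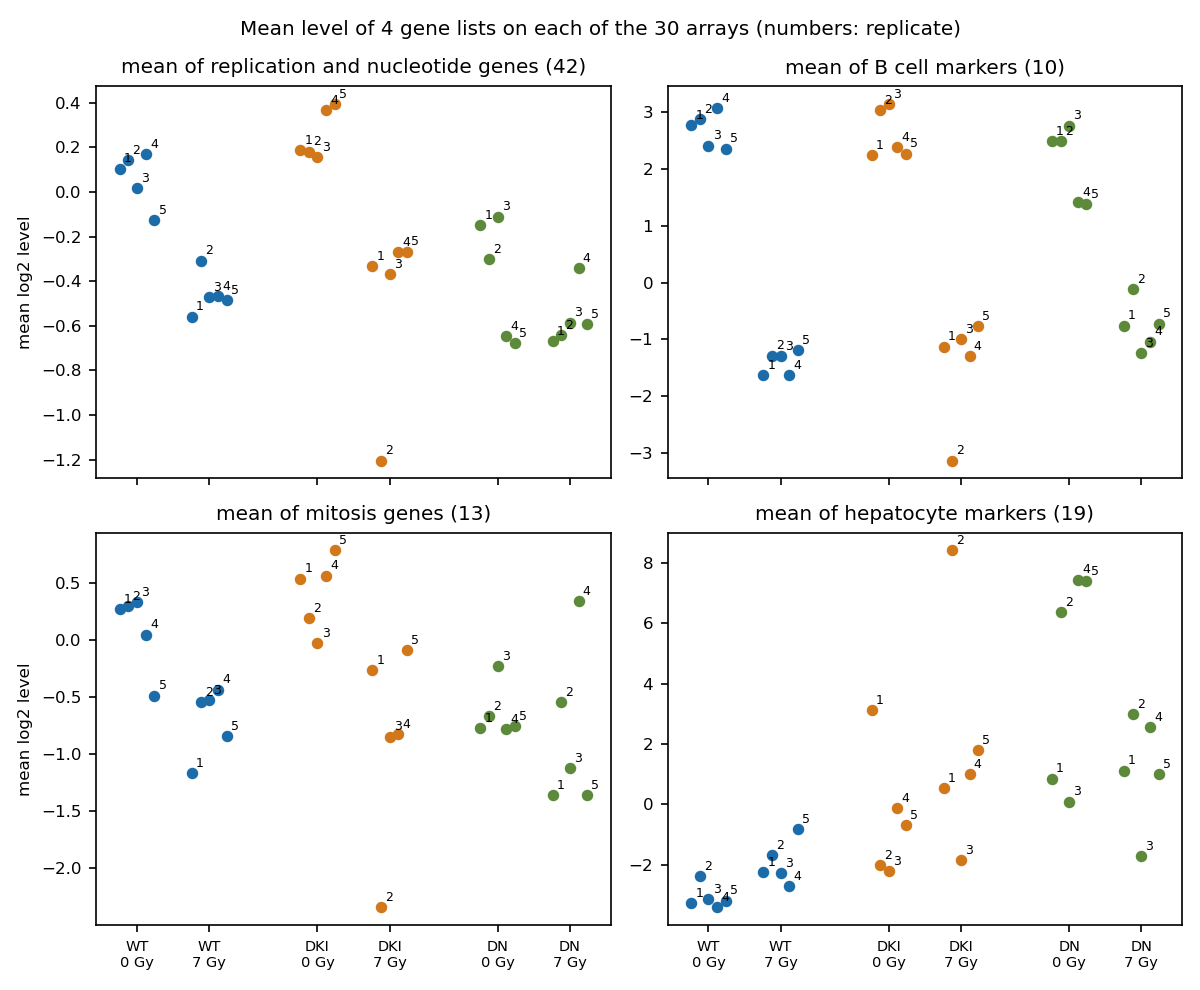
Mean level (log2 relative to the array's 75th percentile) of the 42 members, 10 B cell markers, 13 mitosis genes and 19 hepatocyte markers on each array, by genotype and dose, with replicate numbers. The member means of the doses do not overlap in p38WT and p38DKI and overlap in p38DN, and the hepatocyte mean stands out on 4 arrays.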

How the data were processed

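Each array gave 1 file of scanner output, extracted with Agilent Feature Extraction 12.0.2 per the submitters' processing notes. The intensity used is the processed signal deposited by the authors, background-corrected per the file headers, whose quality flags, deposited as other values of 0 or 1, marked probes well above background and flagged spots. The authors' deposited table of log2 values, which differs from these signals by a constant shift on each array, served as an alternative. Flagged spots (non-uniform or population outliers) were left out, repeated spots were averaged, and the 75th percentile of each array (signal of 43.7 to 244) was subtracted on the log2 scale. Of 39429 probes, 23617 were kept (well above background on at least 4 of 5 arrays of a group, with values on at least 20 arrays), and the brightest stood for each of 18726 genes. All 30 arrays entered 1 limma 3.58.1 group-means fit (R 4.3.3, eBayes, Benjamini-Hochberg over all genes, 24 residual degrees of freedom). Its p-values rest on 1 spread per gene, pooled over the 5 samples within each of the 6 groups. The spread of the p38DKI and p38DN arrays therefore also enters the p38WT tests. The scripts were tested on simulated data. Probe coordinates are on mm9 per the file headers, and promoters are from RefSeq on GRCm38.p6. The members and lists were chosen with earlier results of these data known. Members described by their arrays or ranges are those with the smallest p (6 in each irradiation effect, 3 in each other comparison), with the others by change and count. Same-numbered arrays correlated at -0.147 to 0.411 between doses of p38DN, where a number shares a slide, and at -0.214 to 0.396 in the other genotypes. In p38DN the best partner was the same number for replicates 2, 3 and 4, but not for 1 and 5. The main fit did not pair samples by number, and a replicate block was an alternative. Alternatives to the scaling, background correction, filter, probe choice, slides and arrays used are given in the closing section. 3 of them, which average the similar p38DN arrays or leave out every array over 3 in hepatocyte excess, were chosen after seeing the data.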

Additional observations from a re-analysis of the deposited data

Results flagged for a closer look

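In 144 groups of 5 arrays, over the 24 members described by their arrays, 10 values stood apart from the other 4 of their group by Dixon's criterion, which flags about 1 group in 20 by chance. Of the 10, 7 lay on irradiated p38DKI replicate 2, the array highest in hepatocyte transcripts. On that array Cdt1 read -1.14 (next value 0.14), Gins2 -3.42 (-2.16), Mcm6 1.02 (2.85), Pold1 -0.78 (0.46), Rpa3 0.63 (1.92) and Uhrf1 -3.18 (-1.21), all lowest of their group, while Tk1 was highest at 3.01 (-0.46). Without that array, 22 members were called lower in p38DKI and 1 higher, with a member median of -0.57.

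The other 3 flagged levels lay on 3 different arrays. Cdt1 read 2.16 on unirradiated p38DKI replicate 3, above 1.79. Pold2 read -2.44 on irradiated p38DN replicate 1, below -2.05. Rpa3 read -0.048 on irradiated p38WT replicate 3, below 1.42, and the same array held the highest Pcna value, 5.43.

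Differences of response between genotypes passed limma's test for E2f1, at 1.03 for p38DN against p38WT and 1.15 for p38DN against p38DKI, and for Pola1, at 1.72 for p38DN against p38WT.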

How the results depend on the processing

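Of 56 called member results (1 gene in 1 comparison), 54 kept their direction under every alternative, and 48 lost the call under at least 1. The other 8 kept it under all that could be estimated. They were Dut, Rrm1 and Rrm2 in irradiated p38DN against p38WT, Mcm7, Orc6 and Rpa3 in unirradiated p38DN against p38WT, and the irradiation effects of E2f1 and Pold1 in p38DN. Those of p38DN against p38WT were not put to slide as a fixed block, which ended 41 of the calls it could test. They also cannot be told apart from the scanning batch. Counts below are of members called, without the share of all genes called under the same setting. Array median scaling gave 10 lower and 2 higher in p38DKI, and 0 differences of response for p38DN against either genotype. With no scaling, 1 was higher in p38WT, 6 were lower and 3 higher in p38DKI, 3 lower in p38DN, 8 differed between irradiated p38DN and p38WT, and 1 and 0 responses differed for p38DN against p38WT and p38DKI. Then Rfc2, Rfc5 and Slbp turned to 0.009, 0.12 and 0.60 in p38DKI. Scaling to the 75th percentile of probes detected on all arrays gave 11 lower in p38DN. The deposited values, with 33 members, gave 11 lower and 1 higher in p38DN, 1 and 0 responses, and turned Nasp to 0.17 in p38WT. Normexp with quantile normalization gave 1 difference between irradiated p38DKI and p38WT, 1 and 4 responses, and -0.43 for Pcna in p38WT, which ranged from -0.55 (without irradiated replicate 3) to 0.37 when 1 array was left out. With no filter on dim probes 1 and 0 responses differed. Slide as a fixed block, which does not allow p38DN against p38WT to be estimated, left 0 lower and 0 higher in p38WT, 1 lower in p38DKI and 0 and 0 responses (3 and 7 at an unadjusted p under 0.05 in limma). As a random block it gave 1 difference between irradiated p38DKI and p38WT. With only the groups compared, 0 responses differed between p38DN and p38DKI. Without the 4 hepatocyte-rich arrays 1 was higher in p38DKI, 15 were lower in p38DN and 0 responses differed between p38DN and p38DKI. A hepatocyte covariate gave 12 lower in p38DN and 0 there. Without every array over 3 in hepatocyte excess these were 13 lower in p38DN, 1 higher in p38DKI, and 1 and 0 responses. Averaging p38DN unirradiated 4 and 5, alone or with irradiated 1 and 5, gave 1 and 0 responses. The cause of each of these changes was not tested.

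Leaving out 1 array at a time gave 10 to 16 lower and 1 to 2 higher in p38WT (10 without unirradiated replicate 4), 21 to 23 lower and 0 to 1 higher in p38DKI, and 4 to 8 lower and 2 to 3 higher in p38DN. Between genotypes it gave 0 to 1 for irradiated and 0 for unirradiated p38DKI against p38WT, 13 to 15 for irradiated and 16 to 20 for unirradiated p38DN against p38WT, and 0, 1 to 2 and 0 to 6 differences of response for p38DKI against p38WT, p38DN against p38WT and p38DN against p38DKI. A replicate block changed little: 15 lower and 2 higher in p38WT, 21 and 0 in p38DKI, and 6 and 2 in p38DN. Dim probes limit the sizes given for Pola1 and Pole2.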
